A study of Mus musculus with 8 samples.

Results

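Drebrin (Dbn1), drebrin-like (Dbnl) and cortactin (Cttn) are proteins that bind along the sides of actin filaments, and the abundance of their transcripts was compared between cell extracts and material eluted from IgG beads. The 3 genes were taken by name from the probe annotation, with every probeset of each, which gave 7 of the 46643 probesets and 3 of the 19406 genes that carry 1 gene symbol. The genes were selected on their signal in the eluates against the inputs of these same arrays, so the differences given for them are descriptions and carry no test. Dbn1 was measured by 2 probesets, Dbnl by 1 and Cttn by 4.

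All 8 arrays carried RNA of the mouse podocyte line MPC-5, which is conditionally immortalized by a temperature-sensitive SV40 T antigen. The cells stably expressed the +KTS splice form of the transcription factor WT1 with a modified TAP tag under a CMV promoter, and had differentiated at 37°C over 14 days. An input was a part of the extract kept aside (n = 4). An eluate was the material collected from washed IgG sepharose after TEV protease was added (n = 4). From each, 650 ng of total RNA was labelled. The study reports that Myh10 mRNA was similarly enriched with bovine serum albumin in place of the protease. Cells without the tagged protein were not analysed here, so the tag and the beads cannot be told apart on these arrays. The study reports, with data not shown, that qRT-PCR found Dbn1 mRNA enriched also in pulldowns from cells with the empty vector. Nothing in the labels says whether the replicates came from separate cultures. The p-values given for other genes thus measure only the spread between these samples.

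Drebrin and drebrin-like share an N-terminal actin-depolymerizing factor homology (ADF-H) domain, the fold of cofilin, but do not sever filaments. Drebrin stabilizes actin in dendritic spines of neurons and is also made in cells outside the nervous system. Drebrin-like, also called mAbp1, adds an SH3 domain that ties actin to endocytosis. Cortactin is unrelated in sequence, holds repeats that bind filaments, and activates the Arp2/3 complex, the nucleator of branched actin networks.

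The values are the authors' signal, deposited as log2 and taken back to the linear scale where a signal is given. The median signal per array was 64.9 to 84.3 in the inputs and 71.0 to 84.6 in the eluates. Beside the fraction, the arrays fell into 2 sets along the first principal component of the deviations from the fraction means, which held 74.15% of that variance. Set A was inputs 1 and 2 with eluates 1 and 4, and set B was inputs 3 and 4 with eluates 2 and 3. No source used here gives their origin, and differences within each set are therefore printed for the 3 genes and for the leading genes of the lists. The sets were drawn from the same values that are tested, so calls from a fit with the set as a block are descriptions. Of 9 podocyte markers 7 were found on the array by symbol, and 4 of these (Nphs1, Synpo, Podxl and Nes) passed a signal of 100 on 3 or more of the 4 inputs. Wt1 itself did not, with a mean signal of 74.8 (inputs) and 75.1 (eluates). The study shows the tagged WT1 protein in extracts and eluates by anti-FLAG immunoblot, so these values do not show that it was absent. By the study's account, the 1 probeset of nephrin (Nphs1) did not detect its mRNA in extracts of this cell line. Here Nphs1 stood close to the limit, averaging 102.9 over the inputs and 90.85 over the eluates. In the eluates Nphs1 did not pass the signal of 100. Of the markers of other cells on the array, 0 of 3 for leukocytes, 1 of 5 for endothelium, 1 of 5 for tubule, 2 of 4 for mesangium and smooth muscle and 2 of 5 for neurons passed it in the inputs. The summed signal of the podocyte markers was 5505 to 12810 in the inputs and 11280 to 25470 in the eluates, to which Synpo and Nes added most. Their log2 differences were 0.81 and 2.29, and those of the other podocyte markers ran from -0.18 (Nphs1) to 0.17 (Podxl). The sum for mesangium and smooth muscle, mostly Acta2, was 2914 to 15300 in the inputs and 3105 to 15930 in the eluates. The part of these markers in the results was not tested.

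Drebrin mRNA was far more abundant in the eluates. The study already lists Dbn1 among the enriched mRNAs of these same arrays, and reports it enriched by qRT-PCR in separate pulldowns. At its brighter probeset (7100537) the signal on inputs 1 to 4 was 427, 377, 279 and 223. On eluates 1 to 4 it was 4911, 3036, 2585 and 6460. The fractions did not overlap, and the lowest eluate stood 6.05-fold above the highest input. On the log2 scale the inputs had a mean of 8.31 ± 0.42 (SD, n = 4) and the eluates one of 11.96 ± 0.61 (SD, n = 4), a difference of 3.65 (standard error 0.37 from the spread of the arrays) or 12.6-fold. This difference ranked 3 from the highest among the 13902 tested probesets, those whose signal reached 100 on 3 or more of the 4 eluates. Both fractions come from the extract of the same cells, and since equal amounts of RNA were labelled, more drebrin mRNA in an eluate and less of the other RNAs there cannot be told apart. Nor can, for the level in a bulk extract, fewer cells with a transcript and less of it per cell.

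The dimmer probeset of Dbn1 (102690161) had the same direction with a smaller difference. Its signal was 81.5, 68.8, 64.4 and 50.6 on inputs 1 to 4, below the median of all probesets on each of those arrays, and 172, 163, 133 and 271 on eluates 1 to 4. Again all 4 eluates were above all 4 inputs, the lowest eluate being 1.63-fold above the highest input. With no background taken off, the difference was 1.45 in log2 (standard error 0.26), or 2.72-fold. Its inputs did not reach a signal of 100 on any array, so the probeset was tested only through its eluates and its fold is not a second measure of the size. With the 5th percentile of each array subtracted as background the difference became 2.86, a value set partly by the floor of 16 that 3 of the 4 inputs then held, while the brighter probeset moved from 3.65 to 3.91. The probesets varied together over the 8 arrays (Pearson r = 0.98, and r = 0.92 for deviations from the fraction means).

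**Figure D1:**
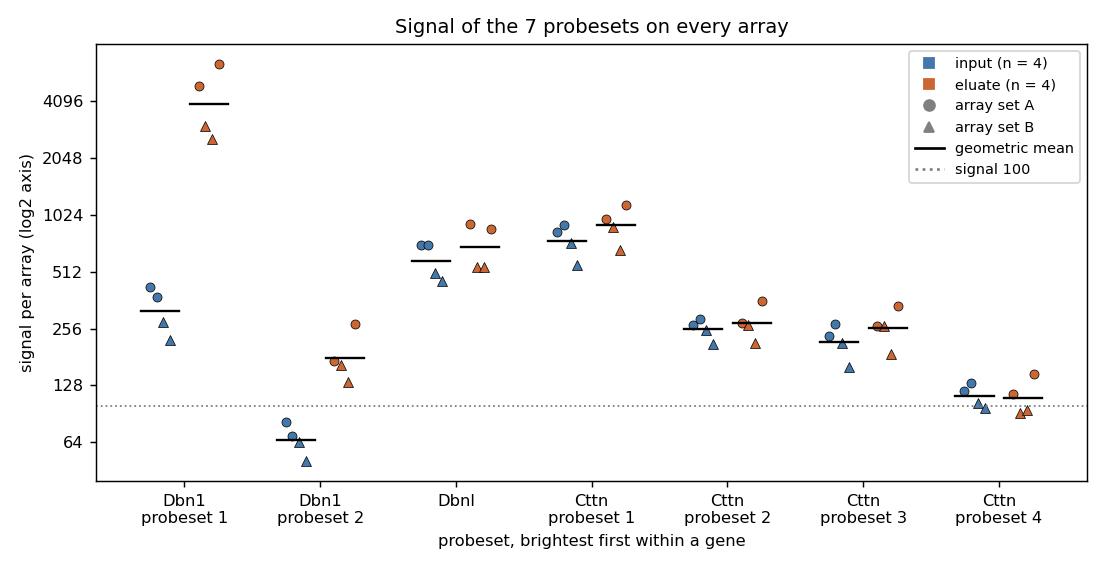
Signal of each probeset (y axis, log2-spaced) on the 4 inputs (blue) and 4 eluates (orange), with circles for array set A, triangles for set B, bars at the geometric mean and a dotted line at a signal of 100. The eluates of both Dbn1 probesets lie above all inputs, while those of Dbnl and Cttn overlap with the inputs.

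Drebrin-like, which shares the ADF-H domain with drebrin, did not show this separation. The single probeset of Dbnl (7100088) had a signal of 711, 707, 501 and 455 on inputs 1 to 4. On the eluates the signal was 920, 545, 539 and 866. Only eluates 1 and 4 exceeded all inputs, and eluates 2 and 3 lay among them. The log2 means were 9.18 ± 0.33 (SD, n = 4) and 9.44 ± 0.42 (SD, n = 4), a difference of 0.26 (standard error 0.27) or 1.20-fold, which is smaller than the spread between arrays of 1 fraction. It lay at the 86.3 percentile of all tested probesets, whose median was -0.0070 and whose 5th and 95th percentiles were -0.40 and 0.46.

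Cortactin gave small differences on all 4 probesets. At the brightest (780154) the inputs 1 to 4 read 830, 903, 727 and 552 and the eluates 972, 884, 670 and 1152. Eluates 1 and 4 were above all inputs, and eluates 2 and 3 were not. The log2 means were 9.53 ± 0.31 (SD, n = 4) and 9.82 ± 0.33 (SD, n = 4), a difference of 0.28 (standard error 0.23) or 1.22-fold.

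The other Cttn probesets stood at or below that difference. Probeset 1690538 had signals from 161 to 272 in the inputs and from 187 to 338 in the eluates, with a log2 difference of 0.25 (standard error 0.24). Probeset 3310017 had signals from 211 to 287 and from 216 to 357, with a log2 difference of 0.11 (standard error 0.18). In both only eluate 4 exceeded all inputs. The dimmest (4060717) read 97.1 to 132 in the inputs and 91.5 to 147 in the eluates, with a log2 difference of -0.03 (standard error 0.19), and it failed the filter because only eluates 1 and 4 reached a signal of 100. The folds of the 4 Cttn probesets thus lay between 0.981 and 1.22.

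Hcls1, the hematopoietic homologue of cortactin, was dim. Its probeset read 60.4 to 80.1 in the inputs and 63.9 to 77.1 in the eluates, with a log2 difference of -0.01 (standard error 0.11), and no array reached 100. Gapdh, the glycolytic enzyme, served as a control gene of high signal, with a log2 difference of 0.11 at the brightest of its 5 probesets and between 0.03 and 0.21 at the others.

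Of the 6 member probesets that passed the filter, both of Dbn1 were past an adjusted p of 0.15 and higher in the eluates in limma with the replicate number as a block, where 1.09% of all tested probesets were. None was past it and lower, where 0.0288% of all tested probesets were. The balance of 152 higher to 4 lower among all tested probesets is that of this fit, and became 477 to 336 with quantile normalization, 497 to 335 with no replicate block and 395 to 1079 without number 4. The same 2 had all 4 eluates above all 4 inputs, against 4.83% of all tested probesets. Since the genes were chosen with this contrast known, and the dimmer probeset entered only through its eluates, nothing is read from these counts. With the array set as the block in place of the number, an alternative chosen after the data were seen, 4 of the 6 were past the cutoff and higher, where 14.4% of all tested probesets were. The brightest of Cttn and that of Dbnl were added. The sets were drawn from the values of these same arrays, so nothing is read from these calls either.

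**Figure D2:**
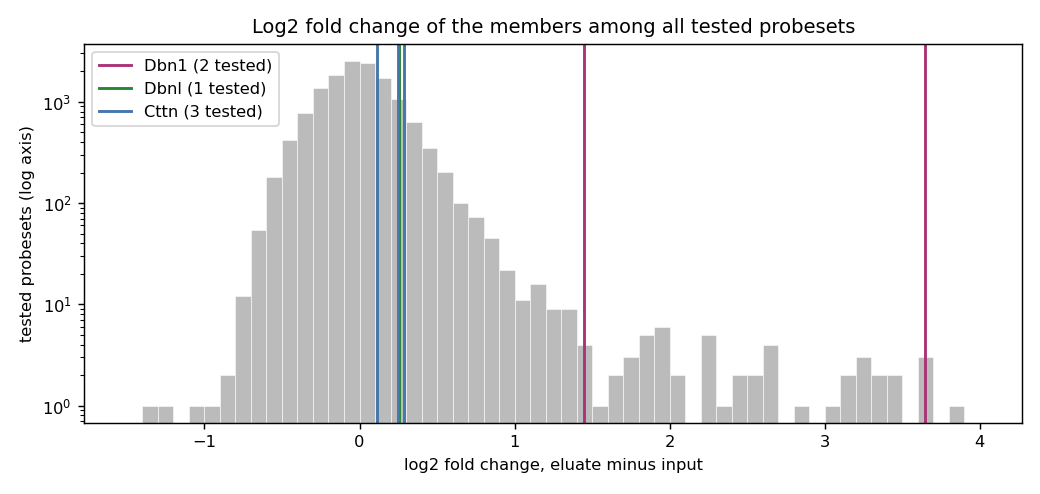
Histogram of the log2 fold change (x axis, eluate minus input) of the 13902 tested probesets, with the number of probesets on a log y axis and a vertical line for each tested probeset of Dbn1, Dbnl and Cttn. The Dbn1 lines stand in the sparse right tail at 1.45 and 3.65, and the others stand between 0.11 and 0.28 in the body of the distribution.

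The difference between drebrin and its relatives was also taken within each array, where a common scale of the array cancels. The log2 signal of Dbn1 less that of Dbnl, at the brightest probesets, ran from -1.03 to -0.73 over the inputs and from 2.26 to 2.90 over the eluates. The shift between the fractions was 3.39 (standard error 0.15), or 10.5-fold. Against Cttn the values ran from -1.38 to -0.96 in the inputs and from 1.78 to 2.49 in the eluates, a shift of 3.37 (standard error 0.19), or 10.3-fold. The standard errors were below the 0.37 of Dbn1 alone, and the deviations of Dbn1 from its fraction means correlated with those of Dbnl (r = 0.94) and Cttn (r = 0.91) over the 8 arrays. The level of 1 probeset is not compared with that of another here, only its change between the fractions.

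Within either array set both Dbn1 probesets stood far above Dbnl and Cttn. For the brighter Dbn1 probeset the eluates exceeded the inputs by 3.81 on the log2 scale in set A and by 3.49 in set B, and for the dimmer one by 1.53 and 1.37. For Dbnl the differences were 0.33 and 0.18. For the brightest Cttn probeset they were 0.29 and 0.28, and for probeset 1690538 they were 0.24 and 0.26. Probeset 3310017 gave 0.17 and 0.06. The dimmest Cttn probeset changed sign between the sets, with 0.05 and -0.11. Each of these values rests on 2 eluates and 2 inputs.

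**Figure D3:**
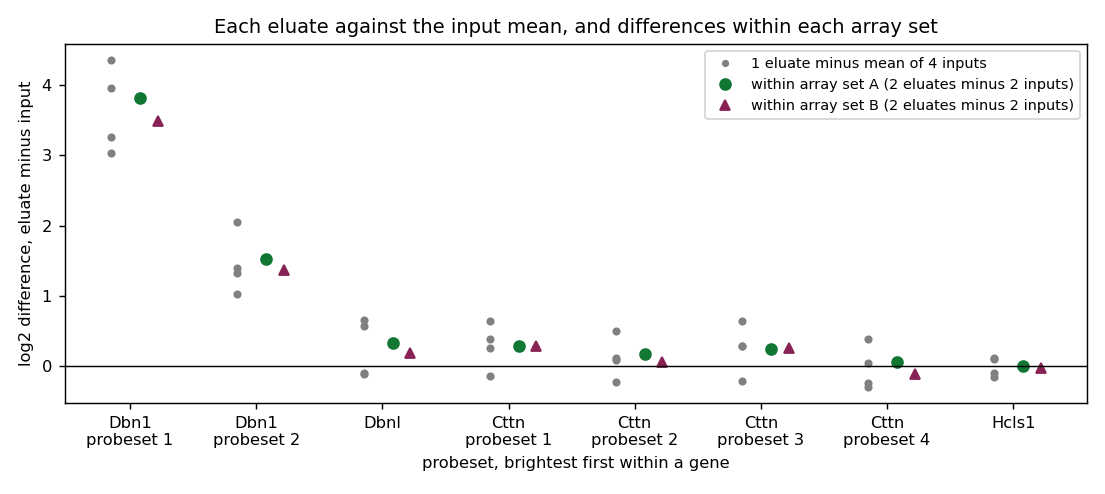
Log2 difference between eluate and input (y axis) for each probeset of Dbn1, Dbnl, Cttn and Hcls1, with grey points for single eluates against the mean of the 4 inputs, green circles for set A and purple triangles for set B. Both Dbn1 probesets are above 1 in every comparison, and the points of the others lie between -0.30 and 0.66.

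Eluate 4 was the highest array for both Dbn1 probesets and all 4 of Cttn, and input 4 the lowest input for all 7 probesets. The eluates of the brighter Dbn1 probeset spanned 2.50-fold and its inputs 1.91-fold, and for the brightest Cttn probeset the spans were 1.72-fold and 1.64-fold. After quantile normalization between the arrays, the log2 differences were 3.63 and 1.46 for Dbn1, 0.23 for Dbnl, and 0.26, 0.24, 0.10 and -0.01 for Cttn. Without the arrays numbered 4, the differences of all 7 probesets were lower, with 3.25 and 1.12 for Dbn1, 0.03 for Dbnl, and 0.03, -0.02, -0.10 and -0.24 for Cttn probesets 780154, 1690538, 3310017 and 4060717, while the median of all tested probesets moved to -0.13. In the other direction, Dbnl was at 0.47 without number 2, and the brightest Cttn probeset at 0.39 without number 2 and 0.42 without number 3, with medians of all tested probesets of 0.06 and 0.04.

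The genes whose profile was most like that of each member were found by Pearson correlation of the log2 signal over the 8 arrays, among 8673 other genes. These points share the fraction and the array set, so the coefficients are descriptions. For Dbn1 they were Sptbn1 (r = 0.998), Fbxo46 (0.997), Flnc (0.996), Myh10 (0.996) and Utrn (0.996). Sptbn1 is the spectrin of the membrane skeleton, Flnc a filamin that crosslinks actin, Myh10 the heavy chain of non-muscle myosin IIb and Utrn the dystrophin homologue utrophin. Their log2 fold changes were 3.41, 1.40, 1.74, 3.83 and 3.37 in that order, and 225 genes had a coefficient over 0.9.

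The profiles most like those of Dbnl and Cttn belonged to other genes, with small changes between the fractions. For Dbnl they were P4ha2, a collagen prolyl hydroxylase (r = 0.995), Pdp2, Ssh3, Klhdc7a and the gap junction protein Gja1 (0.991), with log2 fold changes from 0.21 to 0.50. Among them Ssh3 belongs to the slingshot phosphatases, which act on cofilin, and Gja1 was also on the list of drebrin partners. For Cttn they were Pltp (0.994), Taf1c, the actin disassembly factor Wdr1, App and Ephb3 (0.984), with log2 fold changes from 0.18 to 0.31. A coefficient over 0.9 was found for 958 genes with Dbnl and for 787 with Cttn.

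Genes of the same pathways were tested with limma in the fit of all 13902 probesets. The replicate number was a block, Benjamini-Hochberg adjustment was used, and 1 probeset stood for each gene. The lists were chosen with earlier results of these data known, so their counts are descriptions. Of the ADF-H family beside Dbn1 and Dbnl, 4 of 8 genes passed the filter and none was past the cutoff (0 also at an unadjusted p under 0.05). Of all tested probesets, 1.09% and 5.52% were higher at these cutoffs, so nothing is read from 0 of 4. Twinfilin 2 (Twf2), which caps filament ends, was at 0.19 in log2 (standard error 0.22, adjusted p = 0.888), with 2 of 4 eluates above all inputs. The filament-severing cofilins Cfl1 and Cfl2 were at 0.04 and -0.11, and twinfilin 1 (Twf1) at -0.12, each with a standard error from 0.17 to 0.25. In sets A and B the values were 0.28 and 0.09 for Twf2, 0.16 and -0.08 for Cfl1, -0.03 and -0.19 for Cfl2, and 0.01 and -0.24 for Twf1. The median of the 4 was -0.03, beside -0.0070 for all tested probesets.

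Among the regulators and partners of cortactin and drebrin-like, 30 of 46 genes were tested. None was past the cutoff, where 1.09% of all tested probesets were higher. At an unadjusted p under 0.05, 4 of the 30 were higher, against 5.52% of all tested probesets (1403 of the 13902 in either direction). Of the list, 19 had a log2 fold change above 0 and 11 below, and the median was 0.07, beside -0.0070 for all tested probesets. The most positive were the myosin light chain kinase Mylk with 0.89 (standard error 0.30, adjusted p = 0.354) and Hdac6, a deacetylase that acts on cortactin and tubulin, with 0.75 (standard error 0.21, adjusted p = 0.263). Mylk was at 1.56 in set A and 0.22 in set B, and Hdac6 at 0.56 and 0.93. The Arp2/3 subunits, the complex that cortactin activates, ran from -0.50 for Arpc5 and -0.19 for Arpc5l through 0.12 for Arpc2, 0.20 for Arpc1a and 0.21 for Arpc4 to 0.31 for Arpc1b. Its activator N-WASP (Wasl) was at -0.21 and the WAVE proteins Wasf1 and Wasf2 at -0.22 and -0.19. The kinases that phosphorylate cortactin were at 0.23 for Src, 0.17 for Fyn and -0.04 for Abl1. Dynamin 2 (Dnm2), the membrane scission GTPase that cortactin binds, was at 0.41 (standard error 0.16, adjusted p = 0.444), with 0.41 in either set, and it and Arpc1b were the genes of the list whose 4 eluates were above the 4 inputs, 2 of 30 against 4.83% of all tested probesets. No gene had all 4 eluates below the inputs, which held for 5.01% of all tested probesets. Dnm2 and the Arp2/3 subunits are named after their values were seen. With the array set as a block, 6 of the 30 were past the cutoff and higher and 2, Hax1 and Arpc5, were past it and lower, where 14.4% and 15.2% of all tested probesets were.

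**Figure D4:**
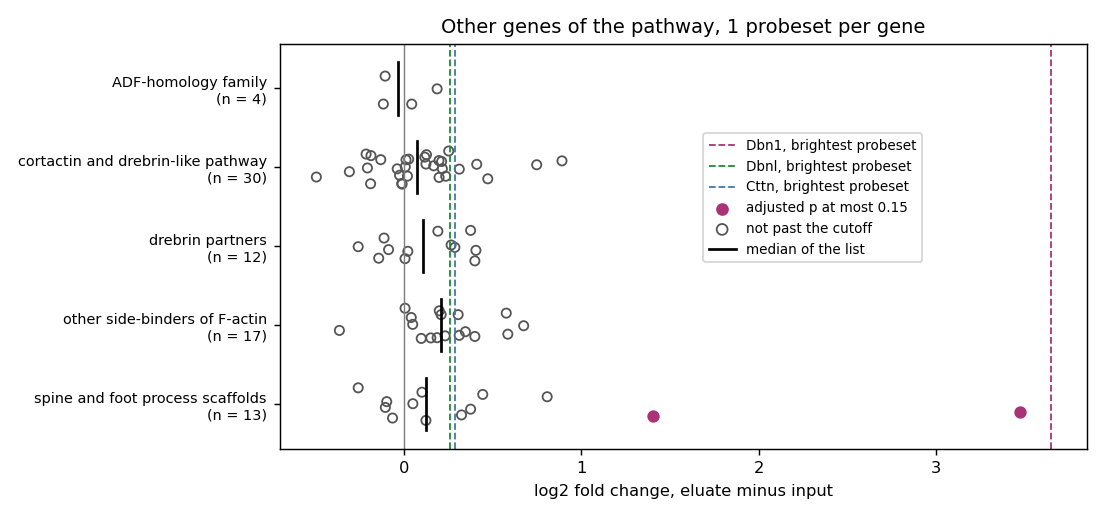
Log2 fold change (x axis, eluate minus input) of the tested genes of 5 lists, 1 point for each gene, filled where the adjusted p was at most 0.15, with a black bar at the median of each list and dashed lines at the brightest probesets of Dbn1, Dbnl and Cttn. The filled points are Ppp1r9a at 3.48 and Ppp1r9b at 1.40, and all others lie below 1.

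Of the partners of drebrin itself, 12 of 15 genes were tested, none was past the cutoff in limma, and 1 of the 12 was higher at an unadjusted p under 0.05, where 1.09% and 5.52% of all tested probesets were higher. That gene was Zmynd8, whose product is held in dendritic spines by drebrin, at 0.40 in log2 (standard error 0.17, adjusted p = 0.476). Mapre3, the microtubule tip protein EB3 that drebrin binds, followed at 0.40 (standard error 0.19, adjusted p = 0.543), and the spine scaffold Homer3 was at 0.37. In sets A and B, Zmynd8 was at 0.24 and 0.56 and Mapre3 at 0.38 and 0.41. Afdn, the junction protein afadin, was at 0.29 and was the gene of the list with all 4 eluates above all 4 inputs, 1 of 12 against 4.83% of all tested probesets. Trpc6, the slit diaphragm channel, was at -0.14 and Homer1 at -0.26. The median was 0.105 over the 12 genes, and with the array set as a block 5 of them were past the cutoff, all higher, where 14.4% of all tested probesets were.

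Of 27 other proteins that bind along actin filaments or link to their sides, 17 were tested and none was past the cutoff in limma, while 3 of the 17 were higher at an unadjusted p under 0.05, where 1.09% and 5.52% of all tested probesets were higher. The median log2 fold change was 0.21, with 16 of the 17 above 0, beside a median of -0.0070 for all tested probesets. The list was chosen with earlier results known, so nothing is read from these signs. Talin 1 (Tln1), which joins integrins to actin, had the highest value with 0.67 (standard error 0.21, adjusted p = 0.334), and caldesmon (Cald1) followed with 0.58 (standard error 0.28, adjusted p = 0.539). In sets A and B, Tln1 was at 0.76 and 0.58 and Cald1 at 0.82 and 0.35. The bundling protein fascin (Fscn1) was at 0.40, with all 4 eluates above all inputs, 1 of 17 against 4.83% of all tested probesets. The tropomyosins, which compete with drebrin for the filament, were at 0.05 for Tpm3, 0.00 for Tpm4 and -0.37 for Tpm1. With the array set as a block 7 were past the cutoff and higher, and Tpm1 was past it and lower, where 14.4% and 15.2% of all tested probesets were.

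Of 26 scaffolds of spines and foot processes, 13 were tested and 2 were past the cutoff in limma, both higher, against 1.09% of all tested probesets. Among the lists, the values closest to those of Dbn1 stood here. The study reports both genes as enriched on these arrays, and the list was chosen with earlier results known, so nothing is read from this count. Neurabin I (Ppp1r9a), an actin-bound scaffold of protein phosphatase 1, had signals of 248, 235, 362 and 302 on inputs 1 to 4 and of 2775, 3002, 3099 and 3790 on eluates 1 to 4. Its log2 fold change was 3.48 (standard error 0.17, adjusted p = 3.24e-05), with all 4 eluates above all 4 inputs. Its relative spinophilin (Ppp1r9b) read 849 to 953 in the inputs and 1726 to 3211 in the eluates, a log2 difference of 1.40 (standard error 0.20, adjusted p = 0.0115), again with no overlap, which held for these 2 of 13 against 4.83% of all tested probesets. Both were past the cutoff without any 1 replicate number, and in sets A and B Ppp1r9a was at 3.75 and 3.21 and Ppp1r9b at 1.70 and 1.11. Synaptopodin (Synpo), an actin-associated protein of foot processes and spines, was at 0.81 (standard error 0.34, adjusted p = 0.467) with 2 of 4 eluates above all inputs, and the kinase subunit Camk2b at 0.44 (standard error 0.29, adjusted p = 0.708). In sets A and B, Synpo was at 0.72 and 0.89 and Camk2b at 0.41 and 0.48. With the array set as a block, 6 of the 13 were past the cutoff and higher, where 14.4% of all tested probesets were. Synpo (limma adjusted p = 2.88e-06), Camk2b (0.0224), Homer3 and Dlg1 were added. That block was drawn from the spread of these same arrays and lowers the remaining spread by construction, so nothing is read from these calls. The median of the 13 genes was 0.12, and Homer1 and Homer3 stood on this list as well as on that of the drebrin partners.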

How the data were processed

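RNA of 4 inputs and 4 eluates was hybridized to Illumina Sentrix-6 mouse arrays. BeadStudio and Partek 6.4 are named in the submitters' processing notes. The authors deposited the log2 of their signal, and no source used here gives a normalization between arrays. A further 24 value columns of other tables have headers that fit no sample's labels and were left out, so detection values were not used either.

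Of 46643 probesets, 32794 carry 1 gene symbol in the platform annotation, 55 several and 13794 none. Symbols were checked against RefSeq (GRCm38.p6) by Entrez ID, which changed none. The fit took probesets whose signal reached 100 on 3 or more of the 4 eluates, in place of the study's detection filter. It used lmFit and eBayes of limma 3.58.1 under R 4.3.3, with terms for the fraction and the replicate number, as the study compared pairs of a pulldown and its input. Benjamini-Hochberg adjustment ran over 13902 probesets, and the cutoff of 0.15 follows the study's 15% FDR. The fit was tested on simulated data. The standard error given for Dbn1, Dbnl, Cttn and Hcls1 is that of a difference of unpaired means, and those of other genes are from limma. A gene of a list is represented by its tested probeset with the highest mean log2 signal.

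The members and the gene lists were chosen with earlier results of these data known. Named genes were all probesets of the members, Hcls1, Gapdh, every tested gene of the ADF-H family, the called genes of the other lists, the 2 largest uncalled changes of each, and the 5 profiles most like each member. Other genes of the lists were named after their values were seen. Alternatives were no replicate block, quantile normalization, a background subtraction, other filters and cutoffs, an intensity trend of the variance, the probeset with the lowest p, leaving out each replicate number, and, added after the data were seen, the array set as a block and quantile normalization with no block. No counts underlie array signals, and precision is limited by how few arrays there are. Figures were drawn with Python 3.11.15 and matplotlib 3.10.9.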

Additional observations from a re-analysis of the deposited data

Results flagged for a closer look

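Among 57 probesets (those of Dbn1, Dbnl, Cttn and Hcls1, the tested ones of Gapdh, the genes most like the members, and list genes that were called or had the largest changes), each looked at in both fractions, 1 array lay far from the other 3 of its fraction. For Arpc1b, a subunit of the Arp2/3 complex, eluate 4 had a signal of 8921, while the other eluates had 7691 to 7845. By chance about 1 in 20 such groups would be noted, and 114 groups were looked at.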

How the results depend on the processing

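The fit blocks on the replicate number. Deviations from the fraction means of inputs and eluates 1 to 4 of the same number correlated at 0.47, -0.66, 0.74 and -0.76. The negative values are those of numbers 2 and 4, whose input and eluate fall in different array sets. Whether the numbers mark pairs therefore cannot be told from these values. With no replicate block 832 probesets were past the cutoff in place of 156, with quantile normalization 813, with no filter on low signal 390, with an adjusted p of at most 0.05 84, and, chosen after the data were seen, with the array set as a block 4124 and with quantile normalization and no replicate block 2168. Of these 497, 477, 320, 84, 2006 and 1067 were higher in that order. Without 1 replicate number the count ran from 53 (number 3) to 1474 (number 4), with 66 without number 1 and 398 without number 2, and 395 of the 1474 were higher. The count at least 2-fold higher was 91, and from 53 (without number 3) to 127 (without number 2). It stayed within 1.5 times under all other settings run. For the regulators and partners of cortactin and drebrin-like, 1 gene was past the cutoff with no replicate block, 2 with quantile normalization, 2 with no filter, 0 to 2 without 1 number, 8 with the array set as a block and 6 with quantile normalization and no replicate block. For the 12 drebrin partners these counts were 1 with quantile normalization and 0 to 1 without 1 number. They were 5 with the array set and 4 with quantile normalization and no block. For the 17 other side-binders they were 2 with quantile normalization and 0 to 1 without 1 number, and 1 of 27 with no filter. The array set gave 8, and quantile normalization with no block 4. Of the 13 spine and foot process scaffolds 2 to 4 were past it without 1 number, with 4 without number 2. The array set gave 6. Without number 4, every call among the cortactin, drebrin partner and side-binder lists was lower in the eluates. Of the 3 scaffolds then past the cutoff, 2 were higher. Nothing is read from these counts. No gene of the ADF-H family was past it under any setting, among 4 genes or, with no filter, 8. The causes were not tested. Leaving out number 2 or 4 takes an array of set A from 1 fraction and an array of set B from the other. The dimmer Dbn1 probeset went from 1.45 to 2.86 with the 5th percentile subtracted, and without 1 number it ran from 1.12 to 1.58, the brighter one from 3.25 to 3.86. No other member value moved by more than the spread between arrays. The dimmest signals, near the array medians, limit what their folds can show.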
